A study of Rattus norvegicus with 6 samples.

Results

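Ultraconserved regions are stretches of genome that are identical in human, mouse and rat, and the array used for these rat livers carries a pair of probes for each of 481 of them, named for the plus and the minus strand. Every probe whose name starts with uc. and that is not a control spot was taken, which gave 962 probes of the 38321 on the array, each printed as 3 spots. The livers came from male Lewis rats 12 h after transplantation, with 3 arrays from grafts of brain-dead donors (the BDDLT group) and 3 from grafts of sham-operated donors (the control group). Brain death was kept for 6 h in the donors of the BDDLT group. All grafts were flushed with UW solution and implanted by the two-cuff technique without reconnecting the hepatic artery. The RNA was depleted of ribosomal RNA, labelled with random primers and hybridised in 1 colour. The comparison asks whether brain death in the donor changes transcription from these regions in the graft.

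Ultraconserved regions lie in introns, exons and flanks of genes, many of them genes for RNA-binding proteins, splicing factors and developmental transcription factors, and they are numbered in order along the human chromosomes. Some are transcribed on their own from either strand, and others are read only as part of the host gene's transcript. Levels of transcribed ultraconserved regions are altered in several human cancers, hepatocellular carcinoma among them, and some respond to low oxygen. The files give neither coordinates nor sequences for these probes, so plus and minus below are the signs in the probe names, and their relation to the rat genes could not be read from the data.

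The 6 arrays were read in 2 scans, replicates 1 and 2 of both groups in the first and replicate 3 of both groups in the second, and the second scan stood apart. On the first scan 304 and 276 of the 962 probes were well above background in BDDLT replicates 1 and 2, and 290 and 300 in control replicates 1 and 2. On the second scan the counts were 428 in BDDLT replicate 3 and 490 in control replicate 3. A probe counted as well above background on an array when at least 50% of its spots without an outlier flag carried the scanner software's flag of that name. Both arrays of the second scan thus detected more ultraconserved probes than any of the 4 others, with 1 array of each group in that scan. The 37277 probes known by a manufacturer's number alone moved the same way, from 70.2%, 67.2%, 67.6% and 68.7% well above background on the first scan (BDDLT 1 and 2, control 1 and 2) to 77.8% and 81.5% on the second (BDDLT 3, control 3). Of the 153 negative control spots, 6, 4, 0 and 2 were well above background on the first scan and 5 and 3 on the second, in the same order.

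A probe is called detected here when 3 or more of the 6 arrays had it well above background, which held for 331 probes, or 34.4%, against 72.1% of the probes with a manufacturer's number. They included 169 of the plus strand and 162 of the minus strand, so the strands were represented about equally. On all 6 arrays 254 probes were well above background, 125 plus and 129 minus, while 465 were so on no array, 232 plus and 233 minus. With the 4 arrays of the first scan alone and the same minimum of 3 arrays, 279 probes were detected. By region, 75 of 481 were detected on both strands, 94 on the plus strand only, 87 on the minus strand only and 225 on neither, so 53.2% of the regions gave signal on at least 1 strand. On the first scan alone 59 regions were detected on both strands.

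Partial detection followed the scan, most of all control replicate 3. A total of 92 probes, 9.56%, were well above background on both arrays of the second scan and on none of the 4 others, against 5.19% of the probes with a manufacturer's number. The reverse, all 4 arrays of the first scan and neither of the second, was seen in 0 ultraconserved probes and in 0.0215% of the others. Of the 72 probes seen on a single array, 65 were seen on control replicate 3 alone and 5 on BDDLT replicate 3 alone. No probe was well above background on all 3 BDDLT arrays and on no control array, and none showed the opposite. Such probes were rare on the whole array too, with 0.0563% and 0.0617% of those with a manufacturer's number, so a count of 0 does not set the ultraconserved probes apart. Of the 335 probes that any array of the first scan showed well above background, 331 were so on both arrays of the second.

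The lowest processed signal of any spot called well above background was 7.22, 9.33, 7.96 and 7.46 on the first scan and 6.38 and 4.73 on the second. Ultraconserved probes seen on 1 to 5 arrays had median processed signals of 4.78, 4.67, 4.675 and 4.615 on the first scan and 9.265 and 9.92 on the second. Those seen on no array had 1.63, 2.11, 1.80 and 1.72 against 1.66 and 1.62. These sets were formed by detection itself. What the lower limit and the signal each added to the extra detections was not tested.

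Signal is given below as the log2 of the processed signal minus the log2 of the array's 75th percentile, so that 0 is the level exceeded by 1 probe in 4. Detected ultraconserved probes were mostly dim, with a median of -3.32 over their 6-array means, quartiles of -4.18 and -1.83 and a range of -5.32 to 4.44. The detected probes with a manufacturer's number had a median of -1.45, quartiles of -3.31 and 1.33 and a highest value of 9.76. Only 35 ultraconserved probes, 3.64%, had a mean above 0, 34 of them on every array, and these belonged to 33 regions. Of the 35, 25 were minus-strand and 10 plus-strand probes, and uc.420 and uc.456 had both strands above 0. Probes differ in sequence and binding strength, so a ranking of levels between probes, or between the strands of a region, describes the signal and was not tested.

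The brightest ultraconserved signal in these livers came from the minus strand of uc.46, at 4.34, 4.34 and 4.21 in the BDDLT replicates and 4.47, 4.60 and 4.68 in the control replicates. Its mean of 4.44 stood at the 94.0th percentile of the array. All 3 BDDLT arrays were below all 3 control arrays, with means ± SD of 4.29 ± 0.07 and 4.58 ± 0.11 (n = 3 each). Its plus strand was at -1.65, -1.68 and -1.48 against -1.34, -1.47 and -1.51, well above background on all 6 arrays but far dimmer.

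The plus strand of uc.471 came next, at 4.02, 4.11 and 4.20 in the BDDLT group and 4.25, 4.30 and 4.23 in the control group. For the minus strand of uc.141 the signals were 4.06, 4.12 and 4.13 in the BDDLT group and 4.15, 4.15 and 4.19 in the control group. In both regions the BDDLT arrays lay just below the control arrays, by a difference of means of -0.15 (SE 0.09, adjusted p = 0.505) and -0.06 (SE 0.08, adjusted p = 0.788), neither past the test. On its minus strand uc.420 was at 3.996, 4.02 and 3.99 in the BDDLT group and 3.97, 4.08 and 4.19 in the control group. Its plus strand was also bright, at 2.47, 2.45 and 2.26 in the BDDLT group and 3.19, 2.77 and 2.34 in the control group, and the groups overlapped on both strands.

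On its plus strand uc.154 gave 3.69, 3.73 and 3.71 in the BDDLT group and 4.05, 3.91 and 3.79 in the control group, without overlap. In uc.465 the minus strand gave 3.59, 3.57 and 3.73 against 3.53, 3.50 and 3.65, and in uc.408 it gave 3.78, 3.69 and 3.56 against 3.46, 3.32 and 3.15. The uc.465 groups overlapped, and all BDDLT values of uc.408 were above the control values. The minus strands of uc.268, uc.455 and uc.456 completed the 10 brightest, with means of 3.38, 3.31 and 3.28. Within each group the SD of the 10 brightest was at most 0.38, reached by uc.456 in the BDDLT group (2.89, 3.18 and 3.64). Of the 10 brightest probes 8 were minus-strand, and the opposite strand was well above background on 6 arrays for 7 of them, on 5 for uc.154, on 3 for uc.141 and on 0 for uc.465.

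Some of the bright regions were neighbours in number. The 30 brightest probes came from 29 regions, and 13 of these had the next or previous number also in the list, in 6 runs. The runs were uc.45 with uc.46, uc.49 with uc.50, uc.184 with uc.185, uc.418 with uc.419 and uc.420, uc.455 with uc.456, and uc.471 with uc.472. In 4 runs every region was brighter on the minus strand, while uc.184 and uc.471 were brighter on the plus strand and their neighbours uc.185 and uc.472 on the minus strand. The mean levels within a run differed, as in the minus strands of uc.418, uc.419 and uc.420 at 2.63, 2.09 and 4.04, and in uc.49 and uc.50 at 1.75 and 2.16. Whether the members of a run are read from a single transcript could not be seen without coordinates.

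Across regions, the signals of the plus and minus probes were hardly correlated. Probes differ in binding strength, so this describes the signal and not the level of transcription. Across the 75 regions with both strands detected, plus and minus levels had a Pearson r of -0.0735 and a Spearman rho of -0.125, a description across regions measured on the same arrays. The plus minus minus difference had a median of -0.65, quartiles of -2.37 and 1.20 and a range of -8.73 to 8.31. It exceeded 1 in size in 56 regions and 3 in 25, and 45 regions were brighter on the minus strand against 30 on the plus strand. The brighter strand was the same on every array with a value in 60 regions, 38 minus and 22 plus. The differences were alike between arrays, with r from 0.969 to 0.994 over the 75 regions for any pair of arrays. With the arrays of the first scan alone the median was -0.94. It was -0.20 after normexp background correction and quantile normalization, and -1.22 in the regions with both strands well above background on all 6 arrays.

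Where the dim strand was not well above background, the ratio between the strands is given as a bound. For it the dim strand was set, array by array, to the lowest signal called well above background, or to its own signal where that was higher. That signal is the lowest of any spot on the array, so a bound is no guaranteed minimum. Ratios are means over the 6 arrays, and they describe these probe pairs without ranking them. In uc.141 the plus strand was well above background on 3 arrays only. The plus minus minus difference was -8.97, -8.84 and -8.97 in the BDDLT group and -8.78, -8.32 and -8.52 in the control group. The minus strand was on average 425-fold brighter as measured, because the plus strand lay at or above that lowest signal on every array. In uc.465 the plus strand was well above background on no array, and the bound was 418 times toward the minus strand. The bounds in uc.144, uc.45, uc.50 and uc.84 were 218, 174, 154 and 150 times, and the plus strand was undetected in all of these but uc.45. All 6 regions kept their brighter strand on all 6 arrays.

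Toward the plus strand the mean ratios or bounds were 312 times in uc.154, 184 in uc.471, 152 in uc.481, 85.7 in uc.173 and 51.0 in uc.356. The minus strands of uc.481 and uc.356 were on no array well above background, nor was that of uc.86, with a bound of 26.2 times. In uc.154 the minus strand was at -4.53, -4.90 and -4.38 in the BDDLT group and -4.23, -4.51 and -4.44 in the control group, well above background on 5 arrays, about 8 log2 units under its plus strand on each. In uc.471 the difference ran from 7.42 to 7.63 over the 6 arrays.

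Of the regions with a known tie to liver or low oxygen, uc.338 and uc.475 gave signal and uc.372 and uc.134 did not. The transcript of uc.338 is raised in human hepatocellular carcinoma, and its plus strand was at -2.88, -3.21 and -2.03 in the BDDLT group and -2.97, -3.16 and -2.17 in the control group. Both groups had their highest value in the second scan, which exceeded the first by 0.96 (adjusted p = 0.0316), and the groups overlapped, with a BDDLT minus control difference of 0.06 (SE 0.39, adjusted p = 0.973). Its minus strand was well above background on 5 arrays, at a mean of -4.37, and the plus strand was brighter on 6 of 6 arrays, by 1.63.

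The region uc.475 lies in the gene for O-GlcNAc transferase and its transcript is induced by low oxygen in human cancer cells. Its plus strand was at 1.19, 1.25 and 1.24 in the BDDLT group and 0.90, 0.999 and 1.02 in the control group, and its minus strand at -2.64, -2.79 and -2.89 against -2.91, -3.05 and -2.99. On both strands all BDDLT values were above all control values, by 0.25 (SE 0.09, adjusted p = 0.205) and 0.21 (SE 0.10, adjusted p = 0.384), and neither passed the adjusted test. The regions uc.372, known for a role in hepatic lipid storage, and uc.134, described in hepatocellular carcinoma, were well above background on 0 of 6 arrays on either strand. Their means were -7.27 and -6.42 for the plus and minus strands of uc.372 and -7.26 and -6.58 for those of uc.134, so no level or difference can be stated for them.

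The regions in genes of splicing factors were read unevenly. Here and for uc.475 the host genes are given from general knowledge of the human genome, since the files do not name them. In uc.50, which lies in SRSF7, the minus strand was bright, at 1.76, 1.92 and 2.01 in the BDDLT group and 2.37, 2.45 and 2.43 in the control group, and the plus strand was on no array well above background. All 3 BDDLT arrays were below all control arrays. In uc.33 (PTBP2) the plus strand was at -3.02, -3.46 and -3.24 against -2.65, -3.30 and -3.44, and the minus strand was not detected. In uc.28 (SRSF11) both strands were detected on all 6 arrays at close levels, with means of -3.32 for plus and -3.62 for minus. Its plus strand was at -2.69 and -2.42 in replicate 3 of the BDDLT and control groups and between -3.93 and -3.49 on the first scan.

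In uc.138 (TRA2B) the plus strand was at -2.09, -2.12 and -2.07 in the BDDLT group and -2.24, -2.10 and -1.58 in the control group, above the minus strand by 1.55 on average and on 6 of 6 arrays. In uc.208 (TRA2A) the minus strand was the brighter on all 6 arrays, at -2.30, -2.33 and -2.16 against -2.12, -2.22 and -2.22, with a plus minus minus difference of -1.94. The groups overlapped in both regions. In uc.189 (SRSF3) the plus strand was well above background on 3 arrays and the minus strand on 2, so the region was at the limit of detection.

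More ultraconserved probes differed between the scans than between the donor groups. In a limma fit with group and scan as terms, 52 of the 331 detected probes, 15.7%, were higher on the second scan at an adjusted p under 0.05, against 3.86% of the 27250 probes tested, and 2, or 0.604%, were lower, against 1.08%. The 52 comprised 31 plus-strand and 21 minus-strand probes, with a median difference of 1.01. The detection minimum counts both arrays of the second scan, so a probe could pass partly through the scan where it is high. The 52 and the shares by band below are therefore descriptive. Of the 254 probes well above background on all 6 arrays, 35 were higher on the second scan at an adjusted p under 0.05. The share for all such probes on the array was not counted. Over all detected ultraconserved probes the median difference was 0.28, and over all tested probes 0.06. None of the 35 probes above the 75th percentile was among those that differed between scans. In the 3 lower of 4 bands of level, cut at the quartiles of the detected ultraconserved probes, 19.3%, 20.5% and 18.3% of the ultraconserved probes were higher on the second scan, against 5.84%, 8.26% and 6.83% of the probes with a manufacturer's number in the same bands. These bands were chosen after the values had been seen.

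Of the 3 probes with the widest spread within a group, 2 followed the scan. The plus strand of uc.482 was at -5.91, -6.62 and -2.82 in the BDDLT group and -4.35, -5.79 and -2.90 in the control group, and the minus strand of uc.117 at -5.53, -5.92 and -2.97 against -5.07, -6.00 and -2.82. In both the replicate 3 arrays were the highest of their group, and these probes were well above background on 3 arrays. In uc.6 the minus strand varied without such an order, at -1.52, -2.24 and -4.35 in the BDDLT group and -4.95, -2.51 and -1.37 in the control group. A brighter probe, the minus strand of uc.341, named after its values were seen, was at -2.23, -2.30 and -1.01 against -2.10, -1.999 and -0.95, with a scan difference of 1.17 (adjusted p = 0.0200).

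Between the groups, ultraconserved probes differed little. No detected probe reached a fold change of at least 2 with an adjusted p under 0.05 in limma (0 of 331), where 0.815% of the 27250 tested probes did, and none reached a 2-fold difference at all, where 3.08% of all tested probes did. At any fold change 2 of 331 had an adjusted p under 0.05, against 1.75% of all tested, and 1 of the 2, uc.404 plus, was detected on 1 BDDLT array only. At an unadjusted p under 0.05 there were 14 higher in the BDDLT group (4.23%, against 8.79% of all tested) and 15 lower (4.53%, against 8.73%), together 29. The 29 include the plus strands of uc.404, uc.479 and uc.391, which passed the detection minimum through the group where they are high. No count was made without such probes, here or for the overlap of the groups below, so these counts are descriptive. By the study's own test for each probe, a t-type comparison of the groups, 27 passed the unadjusted limit and 0 reached the fold change with it. The share of all tested probes was not counted for that test, so the 27 cannot be set against the array. The groups did not overlap in 21 probes that were higher in the BDDLT group, 6.36% of the 330 with a value on every array, against 11.9% of all such probes, and in 25 that were lower, 7.58% against 12.5%. Since whole liver was measured, fewer cells of a type and less RNA per cell cannot be told apart.

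The fitted log2 fold changes of the 331 probes, BDDLT minus control, had a median of -0.06, quartiles of -0.18 and 0.09 and all lay within 1 of 0. Without control replicate 3 the median was 0.05, and without BDDLT replicate 2 it was 0.00081, so its sign rested on single arrays. Over all tested probes the median was -0.03 and the quartiles -0.19 and 0.15. The median was -0.07 for the plus strand and -0.06 for the minus strand, and 17 plus-strand and 12 minus-strand probes had an unadjusted p under 0.05. The median within-group SD was 0.27 for detected ultraconserved probes, 0.195 for all tested probes and 0.09 for the 35 brightest ultraconserved probes, so the dim majority varied more between replicates than the bright few. In the brightest of the 4 bands of level, 8.43% of ultraconserved probes and 21.9% of the probes with a manufacturer's number had an unadjusted p under 0.05, and in the dimmest band 12.0% and 11.1%.

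With the replicate number as a block, as if donors had been matched, 45 probes (13.6%, against 22.1% of all tested in that fit) had an unadjusted p under 0.05, none an adjusted p under 0.05, and the lowest adjusted p was 0.0714. With the scan as a block 52 (15.7%, against 23.8%) passed the unadjusted limit and 5 the adjusted one. The share of all tested probes that passed the adjusted limit in that fit was not counted. On the first scan alone, with 2 arrays a group, 48 passed the unadjusted limit (14.5%, against 21.2%). Without BDDLT replicate 2 the count at an unadjusted p under 0.05 was 16, and without control replicate 2 it was 17. Shares of all tested probes were not counted without these arrays, so the fall cannot be called particular to the ultraconserved probes.

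The plus strand of uc.404 was at -5.14, -5.02 and -5.17 in the BDDLT group and -4.24, -4.34 and -4.32 in the control group. Every BDDLT array was below every control array, and the probe was well above background on 3 control arrays but on BDDLT replicate 3 only. It passed the detection minimum through the control arrays, and the BDDLT level lay at the detection limit. With undetected arrays set to the lowest signal called well above background where that was higher, the control level was above the BDDLT level by 0.69. That signal is the lowest of any spot on the array, so 0.69 is no guaranteed minimum. Passing through the group where a probe is high favours a difference, though it does not force one. The fitted difference of -0.81 (SE 0.09, adjusted p = 0.0287 in limma) is therefore no exact size. Its test is given only because the probe is in the count above. Without any 1 array the adjusted p was over 0.05, and nothing is concluded from the test. After normexp background correction and quantile normalization the fitted difference was -0.09. Within the scans it was -0.79 on the first and -0.85 on the second.

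On its plus strand uc.409 was at -1.61, -1.48 and -1.50 in the BDDLT group and -2.17, -2.15 and -2.03 in the control group, well above background on all 6 arrays. All BDDLT arrays were higher, by 0.58 (SE 0.09, adjusted p = 0.0482), with 0.61 on the first scan, 0.53 on the second and 0.34 after normexp. Its minus strand was not detected. The adjusted p ranged from 0.0189 to 0.274 under the alternatives and was 0.146, 0.274 and 0.0947 without BDDLT replicates 1 to 3, 0.105, 0.247 and 0.0798 without control replicates 1 to 3, and 0.0805 with the replicate block. This was the only detected probe of the set whose BDDLT level was higher at an adjusted p under 0.05.

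The other probes with the smallest p did not pass the adjusted test. Among those with higher BDDLT values, the plus strand of uc.184 was at 0.58, 0.76 and 0.93 in the BDDLT group and 0.21, 0.17 and 0.19 in the control group, a difference of 0.57 (SE 0.11, adjusted p = 0.0752, in a range of 0.0301 to 0.319 over the alternatives, 2 of them under 0.05). In uc.479 the plus strand was at -4.04, -4.19 and -4.43 against -4.68, -5.16 and -5.26 in the control group. It was well above background on all 3 BDDLT arrays and 1 control array, so it passed the detection minimum through the group where it is high. The control level lay at the detection limit, and the mean difference is given as at least 0.74 (0.14 after normexp), with no test. The plus strand of uc.391 was detected on the same numbers of arrays, and its mean difference set that way was 0.42, also with no test. Its fitted difference was 0.60 on the first scan, 0.17 on the second and 0.09 after normexp. The plus strand of uc.414, on all 6 arrays, differed by 0.44 (adjusted p = 0.185), with 0.26 on the first scan, 0.79 on the second and 0.06 after normexp. All BDDLT arrays were above all control arrays in each, but the sizes for uc.391 and uc.414 were not alike between the scans. All 5 higher probes named here were plus-strand. They were picked by the smallest p from these data, so no strand pattern is read from them.

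Among those with lower BDDLT values, the minus strand of uc.132 was at -2.36, -2.27 and -2.18 in the BDDLT group and -1.81, -1.69 and -1.51 in the control group, a difference of -0.60 (SE 0.11, adjusted p = 0.0671). The minus strand of uc.50, in the gene of the splicing factor SRSF7, differed by -0.52 (SE 0.10, adjusted p = 0.0693), with -0.57 on the first scan and -0.41 on the second. With the scan as a block the adjusted p was 0.0361 for uc.132 and 0.0497 for uc.50, in ranges of 0.0220 to 0.294 and 0.0317 to 0.301 over the alternatives. The plus strand of uc.45 was at -4.71, -4.78 and -4.69 against -4.36, -4.22 and -4.25, and the minus strand of uc.339 at -4.15, -4.16 and -3.87 against -3.71, -3.55 and -3.56. In each of these 4 probes every BDDLT array was below every control array, by -0.45 (adjusted p = 0.0700) in uc.45 and -0.45 (adjusted p = 0.127) in uc.339. After normexp the differences were -0.08 in uc.45, -0.08 in uc.339, -0.35 in uc.132 and -0.50 in uc.50, so only the brightest of the 4 kept its size.

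The brightest strands were measured most tightly. Of the 35 probes above the 75th percentile, 6, or 17.1%, had an unadjusted p under 0.05, near the 17.5% of all tested probes, and their differences lay between -0.52 (uc.50 minus) and 0.57 (uc.184 plus). In uc.46 the minus strand differed by -0.29 (SE 0.10, adjusted p = 0.215) and in uc.408 by 0.37 (SE 0.12, adjusted p = 0.198). The minus strand of uc.84 spanned only 2.04 to 2.18 over the 6 arrays, and the plus strand of uc.456 only 0.26 to 0.38.

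The balance between the strands of a region can be compared between the groups, since each probe's binding strength drops out. The plus minus minus difference was tested in the 75 regions with both strands detected. In none did it differ between the groups at an adjusted p under 0.05 in limma (lowest 0.174). In 4, or 5.33%, the unadjusted p was under 0.05. The 4 include uc.324, whose strands were detected unevenly between the groups, as given below. No count was made without uc.324, so the 4 are descriptive. In limma with the replicate block, uc.210, uc.246 and uc.417 also had an unadjusted p under 0.05 (0.0238, 0.0477 and 0.0264). No region had an adjusted p under 0.05 in that fit. The widest shift upward was in uc.132, where the difference was -1.78, -2.05 and -1.75 in the BDDLT group and -2.70, -2.73 and -3.21 in the control group. The groups did not overlap, and the shift was 1.02 (SE 0.21, adjusted p = 0.174). It combined the lower minus strand given above with a plus strand at -4.14, -4.32 and -3.93 against -4.50, -4.42 and -4.72, higher in the BDDLT group by 0.42 (SE 0.14, adjusted p = 0.209).

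In uc.324 the strand difference was -0.62, -0.29 and 0.53 in the BDDLT group and 0.74, 1.18 and 0.81 in the control group. Its plus strand was well above background on 3 control arrays and 1 BDDLT array, and its minus strand on 2 BDDLT arrays and 1 control array. Each strand was thus detected on more arrays of the group where it was higher. The shift is against levels at the detection limit, so no size and no test are given for it. The remaining pair, uc.193 and uc.414, shifted by 0.74 and 0.45 (adjusted p = 0.653 for both in limma). Each did so through a higher plus strand beside a brighter minus strand at means of 0.37 and 0.21. The plus strand of uc.193 was well above background on 4 arrays only, so its shift is no exact size. Over the 75 regions the median size of the shift was 0.15. The fold changes of the plus and minus strands had a Pearson r of 0.0348 and a Spearman rho of 0.180 across regions, and their relation was not tested. In 46 of 75 regions they had the same sign, 34 with both below 0 and 12 with both above.

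The tissue label could be checked against few markers, because the files name genes only through accessions for a small set of probes. Of 27 markers of liver cell types listed, 1 had a named probe, the hepatocyte enzyme Cyp2e1, and none of the markers listed for Kupffer, endothelial, stellate, biliary cells or leukocytes had one. Cyp2e1 was well above background on all 6 arrays, at 5.27, 6.41 and 6.97 in the BDDLT group and 7.02, 7.24 and 7.37 in the control group, above every ultraconserved probe. None of 13 listed host genes of ultraconserved regions had a named probe, so host transcripts could not be set beside the regions.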

How the data were processed

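Intensity values (processed signal, spot and background medians) came from the authors' deposited per-array files made with Agilent Feature Extraction 11.0.1.1, and log2 values from the deposited normalized table of the authors, used as an alternative, which lacks both probes of uc.453. Members and lists were chosen with earlier results of these data known. In Python 3.11.15 with pandas 2.3.3, outlier spots (1.84% to 2.56% of ultraconserved spots per array) were dropped, log2 processed signals averaged over spots, and the array's 75th percentile subtracted. No ultraconserved spot was saturated. Probes that 3 or more of the 6 arrays showed well above background, with 2 or more values per group, were tested with limma 3.58.1 in R 4.3.3 over all 27250 such probes, with Benjamini-Hochberg adjustment. The fit was checked on simulated data. The strand difference was fitted over its 75 regions. The number of arrays limits the precision. Scans were told apart by the image identifier in the file headers. The pairing of equal replicate numbers was tested by correlating deviations from the group means (0.139, 0.297 and 0.531 for pairs 1 to 3). Unequal numbers of the first scan gave 0.291 and 0.200, so pairing and scan could not be told apart, and a replicate block was tried. Named regions were the 10 brightest, the 5 widest strand differences (with those that exceed them by the bound, chosen after the values were seen) and the 5 smallest p in each direction, the 3 widest group SDs, neighbours among the 30 brightest, and 10 regions known from liver, low oxygen or splicing factors. Alternatives covered normalization, background correction, detection rule, scan, test, spot summary and each array left out. No sequences were available.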

Additional observations from a re-analysis of the deposited data

How the results depend on the processing

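The count of 0 ultraconserved probes called between the groups and that of 0 regions with a different strand balance held under all alternatives run for them. A call needs a 2-fold difference, which no detected probe reached in the main fit. The blocks, the t-type test and the limma trend leave the fold change as it was, so the count of called probes could not move there. With the scan as a block 5 probes had an adjusted p under 0.05 at a smaller fold change. The median log2 fold change of -0.06 ran from -0.15 without BDDLT replicate 3 to 0.05 without control replicate 3, with a change of sign. The probes with an unadjusted p under 0.05, 29, became 19 with normexp and quantile normalization, 45 with the replicate block, 52 with the scan as a block and 48 on the first scan alone, and 16 to 39 with each array left out in turn. For normexp and for arrays left out, the shares of all tested probes were not counted. Detected probes, 331, were 497 at a minimum of 1 array and 594 with the scanner's weaker flag for signal above background, and regions with both strands detected, 75, were 143, 201 and, on all 6 arrays, 47. The median strand difference of -0.65 became -0.20 with normexp and -1.22 in the regions on all 6 arrays. A looser rule or fewer regions gives these by construction, while the cause of the others was not tested. Results on the first scan alone for detection and strand, with outlier spots kept, and with scan as the only term (43 probes higher on the second scan in place of 52) were added after seeing the data and stayed within 1.5 times or 1 SD. Counts of unadjusted p could not be set under a Benjamini-Hochberg alternative, which was not run for them. Leaving out 1 array leaves 2 in its group. Signal close to background limits the dim probes, whose differences shrink under normexp.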
